A study of Homo sapiens with 43 samples.

Results

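The 36 genes described here act in the G2 and M phases of the cell cycle and were taken by symbol from a list of cyclins, mitotic kinases, kinesins, centromere proteins and related factors. They are 36 of 58780 Ensembl genes in the deposited tables, and each matched exactly 1 Ensembl identifier. All 36 had counts in each of the 43 libraries and passed the filter on low counts in all 3 experiments. Polyadenylated RNA was sequenced from 2 human lines, GM12878, a lymphoblastoid line of B cells immortalised with Epstein-Barr virus, and HepG2, a liver carcinoma line. In a panel of 15 libraries, GM12878 cells were exposed for 6 h to DMSO, PBS, TNF (25 ng/mL), LPS (10 ng/mL), IL2 (50 U/mL), IFNg (interferon gamma, 100 ng/mL) or Dex (dexamethasone, a glucocorticoid, 500 nM), with 2 libraries each, or to Dox (doxorubicin, which traps topoisomerase II on DNA, 500 nM), with 1 library. In a pretreatment experiment of 24 libraries, GM12878 cells received DMSO or 10 µM BRM014, an inhibitor of the ATPases of the BAF chromatin remodelling complex, 30 min ahead of vehicle, IFNg or Dex at the panel doses. These cells were taken at 1 h or 6 h, which makes 12 groups of 2 libraries. In HepG2, 2 libraries came from cells kept in DMSO for 24 h and 2 from cells kept in 10 µM BRM014 over the same time. The labels name no genetic change in any group. The labels number the replicates but do not say that they came from separate cultures, so p-values measure the spread between these libraries, which may be technical.

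Mitosis is driven by CDK1 bound to cyclin B, which is switched on by CDC25 phosphatases and switched off when the anaphase-promoting complex (APC/C) with CDC20 marks cyclin B for destruction. Aurora, Polo-like, BUB1 and TTK kinases supervise the attachment of chromosomes to the spindle, kinesin motors build the spindle and the cytokinetic midzone, and centromere proteins form the platform for kinetochores. Most of these genes are transcribed from late S phase to mitosis, by MuvB complexes with MYBL2 and FOXM1, and are repressed by the DREAM complex, which p53 engages through CDKN1A. Their summed RNA in bulk samples therefore follows both the number of cells in G2 and M and the amount of RNA per such cell, which cannot be told apart here.

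Promoters of this class are known for the CHR element, read by MuvB, and for CCAAT boxes, read by NF-Y. RefSeq promoters (GRCh38.p14) were found for 30 of the 36 genes, with no entry for AURKA, TTK, UBE2C, TPX2, BIRC5 and FOXM1. The CHR was searched as TTTGAA or TTCGAA and the CCAAT box as CCAAT, on both strands, in the 250 bases before the RefSeq start. That start can differ from the gene start in GENCODE, the source of the gene coordinates given later. By the GENCODE coordinates, the KIF11, KIF20A and HMMR windows printed below lie inside the gene. Those of CDC25B, KIF2C and CCNB2 overlap its start. At least 1 CHR was in 18 of 30 member windows (60%), against 14.3% of 35116 windows of the same length. At least 1 CCAAT was in 24 of 30 (80.0%), against 32.0%, and both were in 16 of 30 (53.3%), against 5.05%. The 6 windows below, all on the + strand, belong to 6 genes with calls in the Dex and BRM014 comparisons described later, and they show the range from several motifs to none. KIF11, KIF20A, HMMR and CDC25B were called in 2 of the 4 comparisons used to choose them, and KIF2C and CCNB2 in 1, as were 16 other members with a promoter entry and higher adjusted p-values. Capitals mark CHR and CCAAT letters, and a CCAAT on the other strand reads ATTGG while a CHR on it reads TTCAAA.
KIF11: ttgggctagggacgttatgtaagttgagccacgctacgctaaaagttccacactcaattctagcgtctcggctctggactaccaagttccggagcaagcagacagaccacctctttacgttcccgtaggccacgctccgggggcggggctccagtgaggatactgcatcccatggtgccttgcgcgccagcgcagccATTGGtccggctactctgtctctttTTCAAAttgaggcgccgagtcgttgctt
HMMR: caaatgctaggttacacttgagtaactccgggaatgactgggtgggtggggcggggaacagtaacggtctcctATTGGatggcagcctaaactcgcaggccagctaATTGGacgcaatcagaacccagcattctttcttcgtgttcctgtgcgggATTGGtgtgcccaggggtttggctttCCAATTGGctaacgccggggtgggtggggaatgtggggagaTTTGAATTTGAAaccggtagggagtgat
CCNB2: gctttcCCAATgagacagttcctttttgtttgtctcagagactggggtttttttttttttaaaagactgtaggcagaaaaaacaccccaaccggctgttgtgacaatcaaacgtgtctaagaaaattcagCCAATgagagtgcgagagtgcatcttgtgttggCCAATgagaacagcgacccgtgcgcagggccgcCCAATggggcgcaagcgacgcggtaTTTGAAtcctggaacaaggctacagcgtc
KIF20A: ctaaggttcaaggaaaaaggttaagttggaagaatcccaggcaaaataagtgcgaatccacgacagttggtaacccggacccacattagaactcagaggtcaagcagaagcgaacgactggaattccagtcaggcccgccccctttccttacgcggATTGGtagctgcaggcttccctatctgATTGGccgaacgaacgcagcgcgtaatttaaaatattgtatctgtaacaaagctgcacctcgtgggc
CDC25B: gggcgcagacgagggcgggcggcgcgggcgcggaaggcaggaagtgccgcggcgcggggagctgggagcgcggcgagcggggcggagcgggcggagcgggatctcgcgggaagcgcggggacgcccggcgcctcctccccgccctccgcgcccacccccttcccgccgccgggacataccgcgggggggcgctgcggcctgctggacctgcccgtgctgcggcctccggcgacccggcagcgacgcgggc
KIF2C: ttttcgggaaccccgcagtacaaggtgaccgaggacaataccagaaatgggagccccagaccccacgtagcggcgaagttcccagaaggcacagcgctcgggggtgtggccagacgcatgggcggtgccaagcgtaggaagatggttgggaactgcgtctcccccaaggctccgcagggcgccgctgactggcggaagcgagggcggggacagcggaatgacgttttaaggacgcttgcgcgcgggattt
The KIF11 window lies at chr10:92592880-92593129, the HMMR window at chr5:163460382-163460631 and the CCNB2 window at chr15:59104896-59105145. The KIF20A window lies at chr5:138178862-138179111, the CDC25B window at chr20:3786701-3786950 and the KIF2C window at chr1:44739587-44739836. KIF11, HMMR and CCNB2 carried both motifs, KIF20A carried CCAAT in 2 places without a CHR of these letters, and CDC25B and KIF2C carried neither. CDC25C and CENPE also carried neither, which made 4 of 30 in that class.

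Total counts per library were 12910306 to 22939910 in GM12878 and 3055373 to 19910464 in HepG2, where BRM014 replicate 2 was the shallowest. The lines matched their labels: 8 B cell markers summed to 10020 to 13560 CPM, a gene's counts scaled to a fixed library total, in GM12878 and 56.0 to 187 CPM in HepG2, where MS4A1, PAX5 and CR2 were at 0. Conversely, 8 hepatocyte markers summed to 15730 to 35180 CPM in HepG2 and 0.928 to 2.65 CPM in GM12878. Levels between genes were compared in TPM, which is scaled by transcript length. In the 4 panel vehicle libraries the highest level was that of UBE2C, an E2 enzyme of the APC/C, at 68.8 ± 3.44 TPM (SD, n = 4). It was followed by NUSAP1, a spindle microtubule binder, at 57.1 ± 7.0 TPM (n = 4), CDC20 at 56.4 ± 2.76 TPM, AURKB at 53.1 ± 2.58 TPM and CCNB1 at 52.3 ± 2.21 TPM. NUSAP1 and CDC20 differed by less than 1 SD, as did AURKB and CCNB1. The lowest were CDC25C at 3.86 ± 0.585 TPM, KIF18A at 4.20 ± 0.206 TPM, which differed by less than the SD of CDC25C, and ANLN at 4.79 ± 0.330 TPM. In the 2 HepG2 DMSO libraries 34 of 36 genes had more TPM than in the panel vehicles, with a median ratio of 2.12. The same ratio was not taken over all genes, so whether these genes stand apart was not tested. The ratio ran from 0.533 for MKI67, the Ki-67 proliferation marker, to 7.46 for ANLN, a scaffold of the cleavage furrow, and BUB1B was the other gene below 1 (0.861). The 3 highest in HepG2 were TOP2A, PLK1 and CCNB1. The lines were cultured and treated in separate experiments, so no test was made between them.

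Dox gave the broadest difference in the panel. With a single Dox library there was no test, and a gene was counted as lower when its CPM, plus 1, was more than 1.5-fold below the mean of the 4 vehicle libraries and below each of them. By that rule 22 of 36 genes were lower and 0 were higher, beside 1.45% lower and 1.44% higher among all 15775 genes tested. The Dox library was below every vehicle library for 35 of 36 genes, a position held by 28.3% of all genes. The median log2 difference was -0.67 over the 36 genes and -0.01 over all genes, and the 36 genes summed to 1290 CPM with Dox and 1880 to 2035 CPM in the vehicles. The other 10 libraries of the panel summed to 1905 to 2014 CPM.

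The cyclin that forms the mitotic kinase with CDK1 was among the genes with the largest differences. CCNB1 (chr5:69167135-69178245, + strand) had 26.1 CPM with Dox, 56.4 and 58.7 CPM with DMSO and 53.1 and 57.7 CPM with PBS. CDK1 itself differed less, with 29.7 CPM with Dox, 37.0 and 36.6 CPM with DMSO and 32.3 and 36.7 CPM with PBS. Dox lay below all vehicles for both genes, at 46.3% of their mean for CCNB1 and at 83.2% for CDK1. Among the other genes of that role, CCNB2 was at 61.7% and CCNA2, the cyclin of S phase and early mitosis, at 61.9%. The phosphatase CDC25C was at 67.0% on 73 counts and CDC25B at 82.4%.

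Among the mitotic kinases 6 of 7 passed the 1.5-fold rule, and PLK1 stood at the low end. PLK1 (chr16:23677656-23690367, + strand), the Polo-like kinase that promotes mitotic entry, had 24.7 CPM with Dox, 67.8 and 69.1 CPM with DMSO and 70.9 and 69.6 CPM with PBS. Dox was therefore at 35.6% of a vehicle mean whose 4 libraries spanned only 67.8 to 70.9 CPM. NEK2, a centrosome kinase, was at 50.1%, the checkpoint kinases BUB1B and BUB1 at 58.6% and 62.0%, AURKA at 63.0% and AURKB at 64.4%. TTK, the upstream spindle checkpoint kinase, did not pass the rule, at 77.0%. CDC20, which activates the APC/C, and UBE2C, an E2 enzyme of the APC/C, both passed the rule, at 49.4% and 62.1% of the vehicle mean.

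The lowest gene of the 36 relative to the vehicles was a kinesin. KIF20A (chr5:138178719-138187723, + strand), a motor of the central spindle, had 7.67 CPM with Dox, 23.0 and 25.2 CPM with DMSO and 24.3 CPM in both PBS libraries, a 3.16-fold lower level on 157 Dox counts. CENPE, which carries chromosomes to the spindle equator, was at 53% of the vehicle mean and KIF23, a midzone motor, at 60.7%. KIF2C, KIF11, KIF18A and KIF4A were at 66.0%, 68.5%, 74.0% and 75.3%, short of the 1.5-fold rule on the scale with 1 added.

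All 3 centromere genes passed it. CENPA (chr2:26764289-26801067, + strand), the histone H3 variant that marks centromeres, had 3.57 CPM with Dox, 10.4 and 13.0 CPM with DMSO and 10.3 and 10.4 CPM with PBS, and the Dox value rests on 73 counts. HJURP (chr2:233833416-233854566, − strand), the chaperone that deposits CENPA, had 11.2 CPM with Dox, 24.0 and 27.2 CPM with DMSO and 23.4 and 24.3 CPM with PBS. Both were below every vehicle library, at 32.4% and 45.2% of the vehicle mean, and CENPF, a large kinetochore protein, was at 59.6%.

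Spindle assembly, cytokinesis and chromosome genes were more mixed. ANLN at 53.9%, DLGAP5, a stabiliser of kinetochore fibres, at 55.7%, TPX2, the activator of AURKA, at 61.0%, MKI67 at 61.6% and PRC1, a bundler of midzone microtubules, at 65.1% passed the rule. HMMR, BIRC5, FOXM1, ECT2 and TOP2A, the target of Dox, did not, at 66.5%, 74.1%, 78.1%, 82.1% and 84.5%. NUSAP1 was the exception, with 71.9 CPM with Dox inside a vehicle range of 68.0 to 80.5 CPM. In GENCODE 44, 86.8% of NUSAP1 exon bases are shared with other genes on the same strand and 9.76% on the opposite strand. The sharing genes are the read-through gene ENSG00000285920, OIP5 and OIP5-AS1, and the share of each was not separated. ENSG00000285920 held at most 0.470 CPM in any library, and OIP5 and OIP5-AS1 levels were not examined. PRC1 shares 57.6% with ENSG00000284946, which held 7.95 CPM with Dox and 9.41 to 13.4 CPM in the vehicles. CENPA shares 7.08% with SLC35F6 on the same strand, which held 14.1 CPM with Dox and 13.3 to 15.8 CPM in the vehicles. How the PRC1 and CENPA reads of shared bases were divided is therefore uncertain. BUB1B shares 10.2% with BUB1B-PAK6, which held at most 0.255 CPM in any library, and PAK6, whose level was not examined. On the opposite strand PRC1 shares 34.3% of its exon bases with PRC1-AS1, FOXM1 15.9% with ITFG2 and PLK1 12.8% with ERN2 and ENSG00000261266. The libraries keep strand, but no source used here says whether the counting used it.

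**Figure D1:**
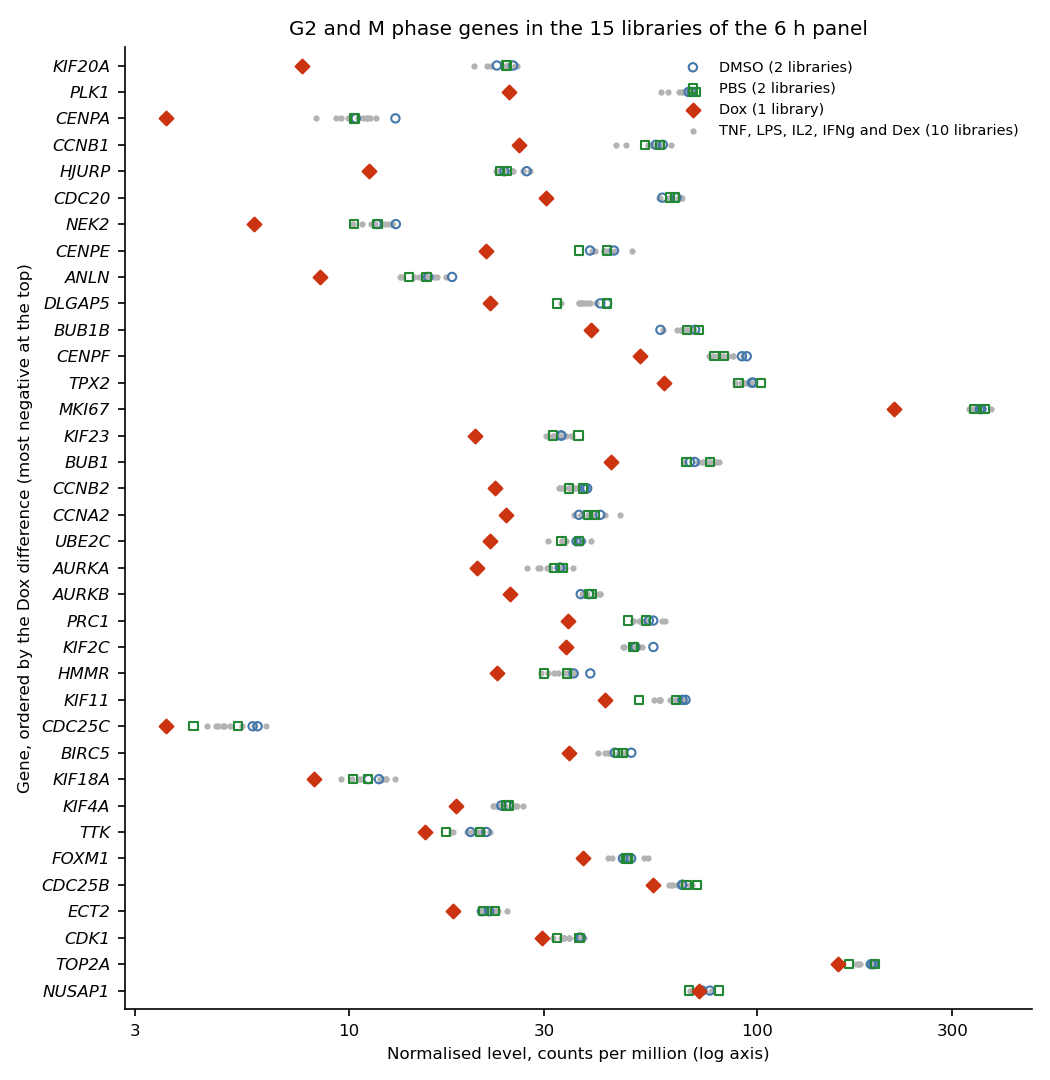
Level of each of the 36 genes in CPM (log axis) in the 15 libraries of the 6 h panel, with each library as a point and the genes ordered by the Dox difference. The Dox diamond lies left of all 4 vehicle symbols for 35 genes and inside them for NUSAP1.

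Other gene groups in the same Dox library gave a reference for these values. Of 50 other mitotic genes 12 were lower and 0 higher by the rule, 43 were below every vehicle library and their median was -0.42. Of 40 S phase genes 2 were lower (UHRF1 and CDT1) and 2 higher (PCNA and TYMS), with a median of -0.13. By position alone, 24 of these 40 were below every vehicle library and 5 were above. Of 30 p53 target genes 27 were higher, and all 30 were above every vehicle library. CDKN1A, the CDK inhibitor, had 873 CPM with Dox and 277 to 305 CPM in the vehicles, and MDM2, the ubiquitin ligase of p53, had 329 CPM and 114 to 150 CPM. GADD45A, an inhibitor of the CDK1 complex, was the 1 gene of 10 tested in the G2 checkpoint list that passed, with a log2 difference of 1.60. Of the 19 E2F, MYB-MuvB and DREAM regulators 0 passed. Members with both promoter motifs had a median Dox difference of -0.64 (16 genes) and those with CCAAT only -0.71 (8 genes). The median was -0.79 with a CHR only (ANLN and BUB1B), -0.53 with neither (4 genes) and -0.53 with no promoter entry (6 genes). The ranges of these classes overlapped, except that CHR only (-0.82 to -0.76) lay below no promoter entry (-0.70 to -0.35).

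Dex changed few of the genes, and by small amounts. In the panel CCNB1 and PLK1 fell and BUB1, PRC1 and FOXM1 rose by edgeR's quasi-likelihood test (Benjamini-Hochberg adjusted p under 0.05 over all genes), and 31 did not pass. Among all genes 13% rose and 12.7% fell, so the 3 of 36 higher and 2 of 36 lower are a smaller share than in the background. The median log2 fold change of the 36 was 0.0073, against -0.0016 over all genes.

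CCNB1 had 45.0 and 47.5 CPM with Dex, 56.4 and 58.7 CPM with DMSO and 53.1 and 57.7 CPM with PBS, a log2 fold change of -0.29 ± 0.057 (SE, adjusted p = 0.000188, edgeR). PLK1 had 60.5 and 58.1 CPM with Dex and 67.8 to 70.9 CPM in the vehicles, a log2 fold change of -0.23 ± 0.050 (SE, adjusted p = 0.00077, edgeR). For both genes each Dex library was below each vehicle library, and both calls held in all 13 alternative analyses. FOXM1, the transcription factor of G2 genes, had 52.8 and 54.1 CPM with Dex and 46.8 to 49.1 CPM in the vehicles. PRC1 had 58.4 and 59.4 CPM with Dex and 48.2 to 55.6 CPM in the vehicles. BUB1 had 76.7 and 80.5 CPM with Dex and 67.1 to 76.7 CPM in the vehicles. Their log2 fold changes were 0.16, 0.16 and 0.15, and these 3 calls were lost with DESeq2, in a fit of the compared groups alone, and without DMSO replicate 1 or either Dex replicate. Without PBS replicate 1 the genes called lower were 4.

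In the pretreatment experiment, whose Dex and vehicle libraries are separate from those of the panel, 0 of 36 genes passed at 6 h with edgeR and 0 with DESeq2, beside 8.06% higher and 7.53% lower among all genes. At an unadjusted p under 0.05 there were 6, and the lowest adjusted p was 0.0505, for TTK with a log2 fold change of 0.24. All 5 genes called in the panel had the same sign there, with -0.12 for CCNB1, -0.08 for PLK1, 0.16 for BUB1, 0.14 for PRC1 and 0.18 for FOXM1. The share of all genes called in the panel that kept their sign was not counted, so this agreement has no background. CCNB1 had 62.2 and 58.1 CPM with Dex and 64.7 and 66.1 CPM with vehicle. PLK1 had 75.0 and 70.0 CPM with Dex and 78.1 and 75.1 CPM with vehicle. Each Dex library was again below each vehicle library for these genes, by margins that did not pass the test. After 1 h of Dex 0 of 36 passed with edgeR or DESeq2, 0 had an unadjusted p under 0.05, and 0.362% of all genes rose and 0.244% fell.

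Genes of the preceding phase moved with Dex in both experiments. Of 40 S phase genes 19 rose and 0 fell in the panel (median 0.17) and 20 rose and 0 fell in the pretreatment experiment (median 0.21), among them DTL, a substrate receptor that degrades licensing factors, at 0.51 and 0.61. Of the 50 other mitotic genes 2 rose and 1 fell in the panel and 4 rose and 1 fell in the pretreatment experiment. The mitotic gene FAM83D, a spindle protein, rose by 0.77 and 0.90 on the log2 scale. CDKN1A fell by 0.50 and 0.55, and CCND3, a cyclin of G1, rose by 1.02 and 0.89. B cell markers fell beside these values, 6 of 8 in the panel and 5 of 8 in the pretreatment experiment, and their part in the cell cycle values was not tested.

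**Figure D2:**
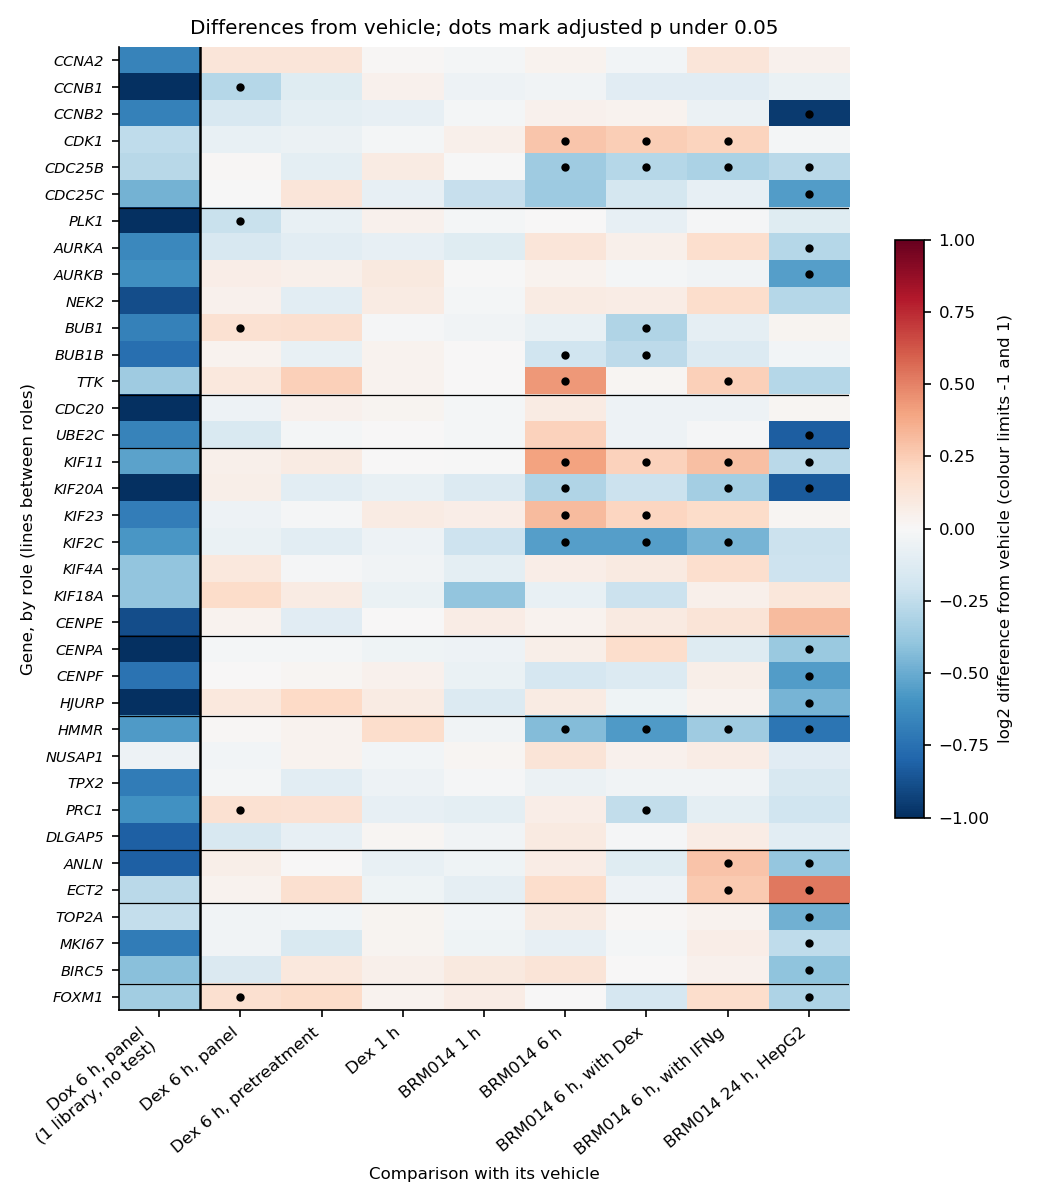
Log2 difference from the matching vehicle for the 36 genes (rows, by role) in 9 comparisons (columns), with dots at an adjusted p under 0.05 and colours that stop at -1 and 1. The Dox column, 1 library without a test, is blue in nearly every row, the Dex columns are pale, and the BRM014 columns hold both colours in GM12878 and mostly blue in HepG2.

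BRM014 had no called effect on the 36 genes early. After 1 h with vehicle 0 of 36 passed with edgeR and 0 with DESeq2, 2 had an unadjusted p under 0.05, and 0.599% of all genes rose and 1.46% fell. In the arms with Dex and IFNg at 1 h 0 of 36 passed as well with either tool, with 0 and 1 at an unadjusted p under 0.05. In the Dex arm 0.58% of all genes rose and 1.33% fell, and in the IFNg arm 0.619% rose and 1.58% fell.

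After 6 h the genes split. With vehicle, CDK1, TTK, KIF11 and KIF23 rose, CDC25B, BUB1B, KIF20A, KIF2C and HMMR fell, and 27 did not pass. Among all genes 18.4% rose and 20.1% fell, so 4 and 5 of 36 are shares below the background. In the Dex arm CDK1, KIF11 and KIF23 rose and CDC25B, BUB1, BUB1B, KIF2C, HMMR and PRC1 fell, beside 17.1% and 20.6% of all genes. In the IFNg arm CDK1, TTK, KIF11, ANLN and ECT2 rose and CDC25B, KIF20A, KIF2C and HMMR fell, beside 15% and 18.7% of all genes. The IFNg-arm calls of TTK, ANLN and ECT2 held in 2, 3 and 5 of 9 alternative analyses. The 3 arms share no library. CDK1 and KIF11 rose and CDC25B, HMMR and KIF2C fell in all 3 arms, beside 8.81% of all genes that rose and 12.4% that fell in all 3. The same sign in all 3 arms was held by 20 of 36 genes (55.6%), 11 positive and 9 negative, against 68.2% of all genes, so neither count stands above its background. The medians of the 36 were 0.05 with vehicle, -0.04 with Dex and 0.04 with IFNg, against 0.01 over all genes in each arm.

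Kinesins and mitotic kinases were each called in both directions. Among the kinesins, KIF11 (chr10:92574105-92655395, + strand), the motor that pushes spindle poles apart, had 72.7 and 79.4 CPM with vehicle and 99.5 and 102 CPM with BRM014. With Dex it had 81.6 and 79.6 CPM against 91.8 and 97.0 CPM, and with IFNg 78.6 and 71.7 CPM against 92.8 and 91.5 CPM. The BRM014 libraries were above the DMSO libraries in each arm, and the log2 fold changes were 0.40, 0.23 and 0.30 (adjusted p = 5.67e-06, 0.00545 and 0.000583, edgeR). The call with Dex was lost without DMSO replicate 2 or BRM014 replicate 2.

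KIF2C (chr1:44739818-44767767, + strand), which depolymerises microtubules at centromeres to correct attachments, went the other way. It had 67.5 and 59.6 CPM with vehicle and 42.1 and 44.1 CPM with BRM014. With Dex it had 60.5 and 57.4 CPM against 37.1 and 43.4 CPM, and with IFNg 51.8 and 58.1 CPM against 40.1 CPM and 40 CPM. The groups did not overlap in any arm, and the log2 fold changes were -0.55, -0.55 and -0.46 (adjusted p = 1.06e-06, 1.74e-06 and 4.05e-05, edgeR), calls that held in all 9 alternative analyses in each arm. KIF23 rose in 2 arms (0.31 and 0.21) and had 0.18 with IFNg, and KIF20A fell in 2 arms (-0.30 with vehicle and -0.34 with IFNg) and had -0.22 with Dex. The KIF23 call held in 7 of 9 alternative analyses with vehicle but in only 2 of 9 with Dex, where it was lost without each of the 4 libraries. Each KIF20A call was lost without BRM014 replicate 1.

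HMMR (chr5:163460203-163491941, + strand), a spindle protein that helps to place TPX2, had 44.6 and 47.5 CPM with vehicle and 36.5 and 32.0 CPM with BRM014. With Dex it had 47.0 and 47.4 CPM against 32.5 and 31.3 CPM, and with IFNg 43.3 and 45.8 CPM against 30.7 and 39.2 CPM. All BRM014 libraries were below the DMSO libraries of their arm, with log2 fold changes of -0.43, -0.57 and -0.36, and the call with IFNg was lost without BRM014 replicate 1 (-0.19, adjusted p = 0.17, edgeR).

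CDK1 and its activating phosphatase CDC25B moved apart. CDK1 (chr10:60778331-60794852, + strand) had 49.7 and 52.0 CPM with vehicle and 60.1 and 63.3 CPM with BRM014, and log2 fold changes of 0.28, 0.24 and 0.22 in the arms with vehicle, Dex and IFNg. CDC25B (chr20:3786772-3806121, + strand) had 60.4 and 61.9 CPM with vehicle and 47.1 and 48.3 CPM with BRM014, and log2 fold changes of -0.36, -0.29 and -0.31. CDC25B libraries did not overlap in any arm. In the arms with Dex and IFNg the CDC25B call was lost without 1 BRM014 library (replicate 2 of each), and without DMSO replicate 1 with Dex. The CDK1 call was lost without BRM014 replicate 2 with vehicle, without either of 2 libraries with Dex, and with DESeq2 or without any of 3 libraries with IFNg. CCNA2, CCNB1 and CCNB2 did not pass in any arm, and with vehicle they had log2 fold changes of 0.04, -0.03 and 0.04.

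Among the checkpoint kinases, TTK (chr6:80003887-80042527, + strand) had 21.7 and 23.8 CPM with vehicle and 29.1 and 32.6 CPM with BRM014, with no overlap, a log2 fold change of 0.43 ± 0.082 (SE, adjusted p = 8.73e-05, edgeR). BUB1B, which holds back CDC20 until chromosomes are attached, fell by 0.20 with vehicle and by 0.26 with Dex on the log2 scale and had -0.14 with IFNg. The BUB1B call with vehicle was lost without DMSO replicate 2 or BRM014 replicate 2. AURKA, AURKB, NEK2 and PLK1 did not pass in any arm, nor did CDC20, UBE2C, the 3 centromere genes, TOP2A, MKI67, BIRC5 or FOXM1.

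**Figure D3:**
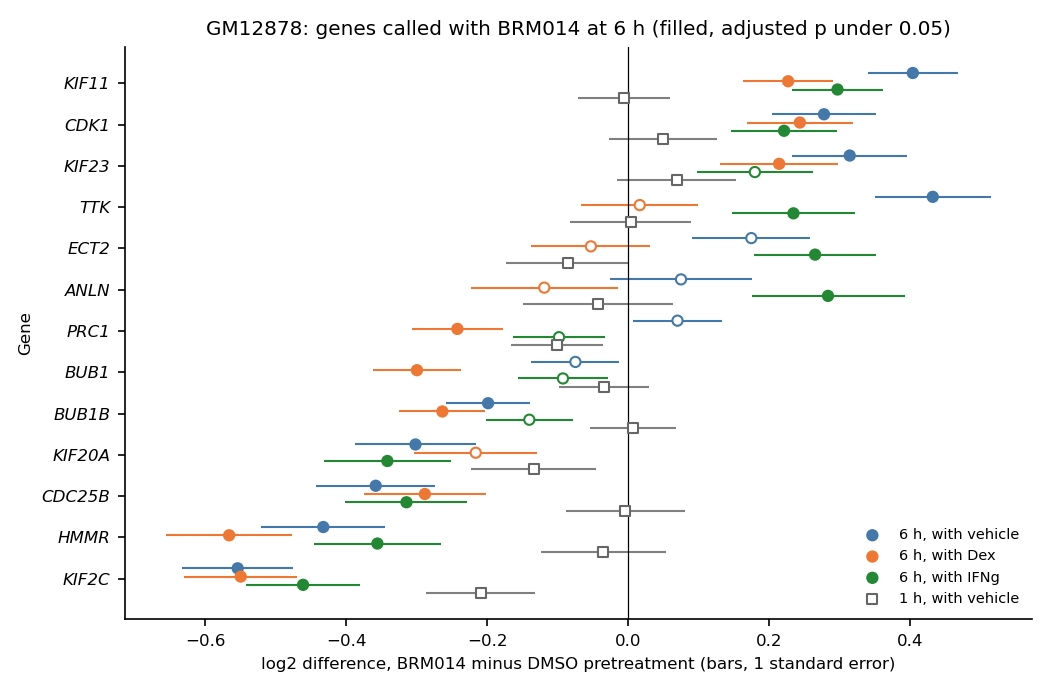
Log2 difference between BRM014 and DMSO pretreatment, with 1 standard error, for the 13 genes called in at least 1 of 3 arms at 6 h. Circles are filled where the adjusted p was under 0.05, and squares, always drawn open, give the 1 h values with vehicle. KIF11 and CDK1 are filled right of 0 and CDC25B, HMMR and KIF2C filled left of 0 in all 3 arms.

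These splits depend on the scale. With library totals in place of the trimmed-mean factors the median of all genes moved to 0.10, 0.11 and 0.12 in the arms with vehicle, Dex and IFNg, and members called became 13 higher and 4 lower, 6 and 4, and 14 and 3. Over all genes the share of calls that were higher moved from 47.8% to 64.1%, from 45.3% to 64.5% and from 44.5% to 66.4%. On that scale KIF2C and HMMR still fell and KIF11 and CDK1 still rose in all 3 arms, and CDC25B passed only with vehicle. BUB1B with vehicle and PRC1 with Dex no longer passed (adjusted p = 0.175 and 0.0838, edgeR). B cell markers fell in the same libraries, 6 of 8 with vehicle, and their part in these values was not tested.

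The change from 1 h to 6 h was tested for BRM014 with vehicle. KIF11 and TTK differed upward (0.41 and 0.43 on the log2 scale) and CDC25B, HMMR and KIF2C downward (-0.35, -0.40 and -0.34), beside 7.34% of all genes upward and 11.4% downward. At 1 h KIF11 had 80.1 and 76.1 CPM with DMSO and 76.7 and 78.8 CPM with BRM014, groups that overlapped. HMMR had 41.2 and 36.9 CPM against 37.1 and 39.0 CPM at 1 h, which also overlapped. For KIF2C the time difference (-0.34) was smaller than the 6 h effect (-0.55), so its 1 h value was already negative, though not called. The KIF11 difference held in all 13 alternative analyses. With DESeq2 the 3 downward calls were lost, and with library totals the calls became 8 upward and 0 downward.

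Around these genes, 27 of 40 S phase genes rose and 0 fell with BRM014 and vehicle at 6 h (median 0.27), 14 rose and 3 fell with Dex, and 21 rose and 0 fell with IFNg. Of the 50 other mitotic genes 18 rose and 2 fell with vehicle (median 0.17), 10 rose and 5 fell with Dex, and 19 rose and 1 fell with IFNg. KIF14, a cytokinetic kinesin, rose by 0.81 and PLK4, the kinase of centriole duplication, by 0.47 on the log2 scale with vehicle. E2F1 rose by 0.70, while E2F7, a repressor of E2F targets, fell by 1.15. Of 30 p53 targets 3 rose and 13 fell, and CDKN1A fell by 1.39. In the G2 checkpoint list CHEK1 rose by 0.59 and CHEK2 by 1.36, and GADD45A fell by 0.82.

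Whether the effect of Dex differed with BRM014 was tested at 6 h, and of 36 genes only TTK passed, downward, beside 1.04% of all genes upward and 1.72% downward. The 4 group values of TTK were 21.7 and 23.8 CPM with DMSO and vehicle, 25.9 and 28.3 CPM with DMSO and Dex, 29.1 and 32.6 CPM with BRM014 and vehicle, and 28.0 and 26.7 CPM with BRM014 and Dex. The difference of effects was -0.42 ± 0.117 (SE, adjusted p = 0.0476, edgeR), and the call was lost with DESeq2 and without any of 6 of the 8 libraries taken singly. Within BRM014, UBE2C fell with Dex (-0.30, adjusted p = 0.0474, edgeR), beside 3.67% of all genes higher and 4.1% lower, and that call was lost without each of its 4 libraries. At 1 h the difference of Dex effects passed for 0 of 36 genes with either tool and 0 had an unadjusted p under 0.05, beside 0.0395% and 0.079% of all genes. Dex within BRM014 at 1 h also passed for 0 with either tool, with 2 at an unadjusted p under 0.05, beside 0.178% and 0.0988%.

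In HepG2 after 24 h of BRM014 the genes leaned downward. Of 36, 17 fell, ECT2 rose and 18 did not pass, beside 22.8% of all 13349 genes lower and 19.3% higher. The median log2 fold change was -0.26 over the 36 genes and -0.01 over all genes, and 7 of 36 values were positive. The 36 genes summed to 3619 and 3887 CPM with DMSO and to 3184 and 3074 CPM with BRM014. The dose was that of the GM12878 experiment but the time was not, so values of the lines stand side by side without a comparison.

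CCNB2 (chr15:59105126-59125045, + strand), the Golgi-linked B cyclin, had 74.7 and 72.7 CPM with DMSO and 38.3 and 37.4 CPM with BRM014. The groups lay far apart, with a log2 fold change of -0.95 ± 0.110 (SE, adjusted p = 2.53e-06, edgeR). CCNB1 had 147 and 143 CPM with DMSO and 139 and 138 CPM with BRM014, a log2 fold change of -0.07 that did not pass, and CCNA2 (0.04) and CDK1 (-0.02) did not pass either. CDC25C fell by 0.56 and CDC25B by 0.27 on the log2 scale.

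KIF20A had 70.2 and 78.8 CPM with DMSO and 42.1 and 40.8 CPM with BRM014, a log2 fold change of -0.84 ± 0.113 (SE, adjusted p = 1.33e-05, edgeR). UBE2C (chr20:45812576-45816957, + strand) had 58.6 and 53.2 CPM with DMSO and 31.7 and 31.1 CPM with BRM014, a log2 fold change of -0.82 ± 0.121 (SE, adjusted p = 3.45e-05, edgeR). HMMR had 48.7 and 55.5 CPM with DMSO and 32.9 and 28.9 CPM with BRM014, a log2 fold change of -0.73 ± 0.127 (SE, adjusted p = 0.000189, edgeR). In all 3 the groups were separate, while the APC/C partner of UBE2C, CDC20, had 74.1 and 72.6 CPM against 71.9 and 78.8 CPM, which overlapped.

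All 3 centromere genes fell, CENPF by 0.56, HJURP by 0.47 and CENPA by 0.37 on the log2 scale. So did the 3 chromosome and proliferation genes, TOP2A by 0.48, BIRC5 (survivin, a subunit of the AURKB complex) by 0.40 and MKI67 by 0.26. The CENPA call held in only 2 of 8 alternative analyses and the MKI67 call in 3. Neither passed with library totals (adjusted p = 0.157 and 0.265, edgeR). AURKB fell by 0.55, AURKA by 0.28, ANLN by 0.39, FOXM1 by 0.31 and KIF11 by 0.27. ECT2, the exchange factor that starts the cleavage furrow, had 63.7 and 73.3 CPM with DMSO and 106 and 88.8 CPM with BRM014, and rose by 0.53 ± 0.112 (SE, adjusted p = 0.00114, edgeR) without overlap of the groups. PLK1, BUB1, BUB1B, TTK and NEK2 did not pass, with -0.12, 0.03, -0.02, -0.28 and -0.28.

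The calls of CCNB2, KIF20A, UBE2C, HMMR, CENPF, TOP2A and HJURP held in all 8 alternative analyses and with library totals. Those of AURKB, BIRC5, CDC25C and ANLN held in 7 of 8, and those of AURKA and FOXM1 in 3. The count of lower genes was 12 without DMSO replicate 2, 10 without BRM014 replicate 1 and 12 without BRM014 replicate 2, and the ECT2 call was lost without BRM014 replicate 1 (adjusted p = 0.0535, edgeR). With library totals the median of all genes was 0.10, the calls were 2 higher and 10 lower, and higher calls over all genes moved from 45.9% to 59.6%. Hepatocyte markers fell in the same libraries, 7 of 8 with a median of -1.32, and their part in these values was not tested.

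**Figure D4:**
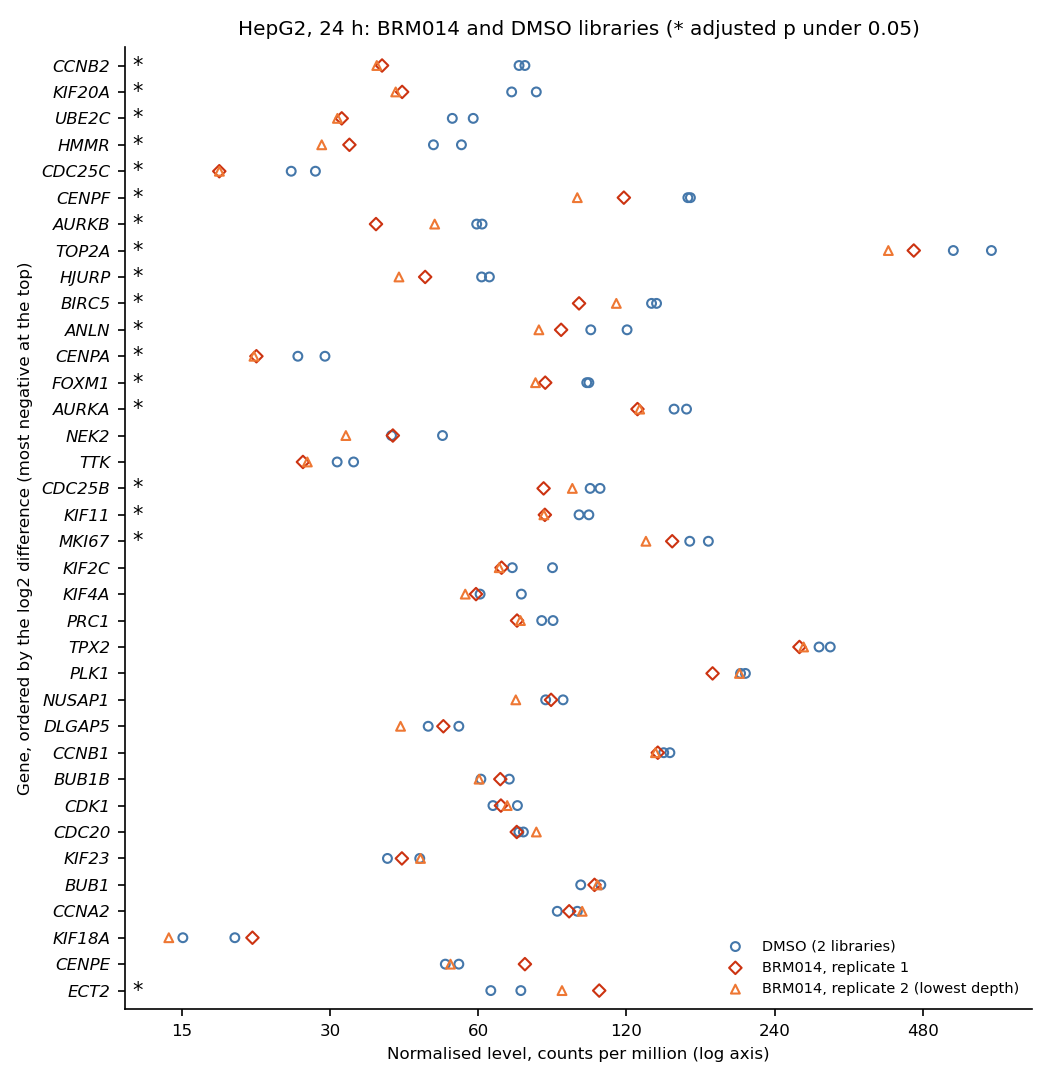
Level of each of the 36 genes in CPM (log axis) in the 4 HepG2 libraries at 24 h, ordered by the log2 difference, with stars at an adjusted p under 0.05. The BRM014 symbols lie left of both DMSO circles for the starred genes, except ECT2, where they lie right, and the symbols of CDC20, KIF23, BUB1 and CDK1 overlap.

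The other list values in HepG2 were 3 of 50 other mitotic genes higher and 15 lower (median -0.21), with PTTG1, the securin that restrains separase, at -0.89, and 3 of 40 S phase genes higher and 19 lower (median -0.36). CDC25B, HMMR and KIF20A fell both in HepG2 and in GM12878 with vehicle at 6 h, which are 3 of the 17 and 3 of the 5 genes called lower. Of all genes tested in both lines 6.44% were lower in both, which are 33.2% of those lower in HepG2 and 35.6% of those lower in GM12878. The HepG2 call of CDC25B was lost in 6 of 8 alternative analyses, and with library totals its adjusted p was 0.245 (edgeR). KIF11 rose in GM12878 and fell in HepG2, where the call was lost in 6 of 8 alternative analyses. CCNB2, UBE2C and the centromere genes, lower in HepG2, did not pass with BRM014 in GM12878 at either time. No test of the difference between lines was made, because time, line and experiment differ together.

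The remaining comparisons gave few calls. IFNg in the panel passed for 0 of 36 genes with edgeR or DESeq2, with 5 at an unadjusted p under 0.05, beside 7.11% of all genes higher and 4.75% lower. In the pretreatment experiment BUB1B (-0.22) and ANLN (-0.35) fell with IFNg at 6 h, beside 3.47% higher and 3.15% lower. ANLN had 20.2 and 20.8 CPM with vehicle and 14.9 and 17.1 CPM with IFNg, and BUB1B had 80.9 and 82.1 CPM against 74.9 and 65.7 CPM. Both were separate between groups, both calls were lost with DESeq2 and without either vehicle replicate, and neither gene passed in the panel. TNF, LPS and IL2 passed for 0 of 36 with either tool, with 1, 0 and 1 at an unadjusted p under 0.05. Of all genes 0.019% rose and 0% fell with TNF, 0% moved either way with LPS, and 0.197% rose and 0.00634% fell with IL2. DMSO against PBS also passed for 0 with either tool, with 3 at an unadjusted p under 0.05, beside 0.184% and 0.254% of all genes.

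In the DMSO and vehicle groups, 2 of 36 genes rose from 1 h to 6 h and 34 did not pass. Of the 36 values 32 were positive, with a median of 0.09, against 49.5% of all genes positive and a median of -0.0019, and 1.12% of all genes rose and 0.31% fell. BUB1B had 65.0 and 68.3 CPM at 1 h and 80.9 and 82.1 CPM at 6 h, and KIF20A had 26.4 and 23.0 CPM at 1 h and 30.5 and 31.1 CPM at 6 h. These 2 genes passed (0.29 and 0.32), the groups did not overlap, and both calls were lost without each of the 4 libraries in turn.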

How the data were processed

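Per the labels' protocols, stranded libraries of polyadenylated RNA were sequenced as 150-base pairs on a NovaSeq. Per the submitters' processing notes, STAR and RSEM were used with hg38; versions and annotation are not given in the sources used here. The deposited tables, 1 per library, hold expected counts (2.51% to 4.8% of values not whole) and TPM per gene as the authors' RSEM run gave them. Of 59526 identifiers, 746 without an Ensembl gene held 0 counts and were left out.

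Expected counts were rounded and tested with edgeR 4.0.16 (filterByExpr, TMM factors, robust quasi-likelihood fit; R 4.3.3, limma 3.58.1), in 1 fit for each experiment: 15775 genes in the panel (7 residual degrees of freedom), 15183 in pretreatment (12) and 13349 in HepG2 (2). Calls have a Benjamini-Hochberg adjusted p under 0.05 over all genes of a fit. CPM uses TMM-scaled totals. Standard errors are the log2 fold change over the root of F. Panel stimuli were set against the mean of DMSO and PBS. Dox, 1 library, was described with 1 CPM added and a 1.5-fold rule. Scripts were tested on simulated data. Symbols and gene coordinates are from GENCODE 44 (hg38).

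Alternatives were DESeq2 size factors, no filter, a replicate block, DESeq2's Wald test (1.42.0), only the compared groups, single vehicles, each library left out and, added after seeing the data, library totals. Differences between replicates 1 and 2 correlated between groups at -0.0944 to 0.0831, and the main fits did not pair libraries by number. Such correlations cannot show whether a number marks a shared culture. The members and gene lists were chosen with earlier results of these data known. Any member could be named; outside them, the 4 genes of a list with the lowest adjusted p (for Dox, the 4 furthest from 0) and a set that holds CDKN1A, MDM2, E2F1 and CCND3. Promoters were printed for the 6 members called in the most of 4 comparisons (Dex in both experiments, BRM014 with vehicle at 6 h and in HepG2), with ties settled by the lowest adjusted p.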

Additional observations from a re-analysis of the deposited data

Results flagged for a closer look

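The effect of BRM014 in GM12878 with vehicle differed between 1 h and 6 h for 5 genes by a test of the difference itself (edgeR quasi-likelihood test of the interaction, Benjamini-Hochberg adjusted over all 15183 genes). The difference of effects, 6 h minus 1 h on the log2 scale, was 0.41 ± 0.091 (SE) for KIF11 (adjusted p = 0.0013, edgeR). It was 0.43 ± 0.119 for TTK, -0.40 ± 0.125 for HMMR, -0.34 ± 0.111 for KIF2C and -0.35 ± 0.119 for CDC25B, with adjusted p-values of 0.0101, 0.024, 0.0266 and 0.0356. The KIF11 difference passed in all 13 alternative analyses, TTK in 10, HMMR in 8, KIF2C in 7 and CDC25B in 6.

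The effect of Dex at 6 h differed between BRM014 and DMSO pretreatment for TTK, with a difference of -0.42 ± 0.117 on the log2 scale (SE, adjusted p = 0.0476, edgeR). It passed in 4 of 13 alternative analyses, where the adjusted p ran from 0.0368 to 0.263, and with library totals the adjusted p was 0.0622 (edgeR).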

How the results depend on the processing

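No called single-gene value and no Dox value changed direction under the alternatives tried for it, and the cause of the changes below was not tested. Values that were not called did change sign: with library totals positive members went from 24 to 29 with BRM014 and vehicle at 6 h, from 13 to 23 with Dex (median -0.04 to 0.07), from 20 to 30 with IFNg and from 7 to 12 in HepG2. Of 3764 single-gene values under alternatives, 3211 kept their call or, for Dox, moved by less than the vehicle SD. Another 550 lost their call, and 3 (KIF20A, PLK1 and CENPA with Dox and a pseudocount of 0.1) moved by more than that SD. The numbers that follow are members called, higher or lower. For Dex in the panel, higher calls were 3, with 0 by DESeq2's Wald test, 0 with only the compared groups, 1 with DMSO alone, 1 with PBS alone and 0 to 3 when single libraries were left out, where lower calls ran from 2 to 4. For Dex after DMSO pretreatment at 6 h, higher calls went from 0 to 1 with DESeq2 size factors and 1 with the replicate block, and lower calls were 0 to 1 when libraries were left out. For Dex after BRM014 at 6 h, the 1 lower call became 2 with size factors, 0 with the block, 2 with library totals, 0 by the Wald test and 0 without any library. For BRM014 with vehicle at 6 h, higher calls were 13 with library totals and 2 to 4 when libraries were left out, and lower calls 4 to 6. With Dex they were 6 higher with library totals and 0 to 2 when libraries were left out. With IFNg they were 3 higher without the filter, 14 with library totals, 1 by the Wald test, 1 with only the compared groups and 1 to 5 when libraries were left out, where lower calls ran from 2 to 5. For the Dex by BRM014 difference at 6 h, the lower calls were 2 with size factors, 0 without the filter, 2 with the block, 0 with library totals, 0 by the Wald test, 0 with only the compared groups and 0 to 2 when libraries were left out. For BRM014 by time, higher calls were 8 with library totals and 1 to 3 when libraries were left out, and lower calls 0 with library totals, 0 by the Wald test and 0 to 2 when libraries were left out. For vehicle at 6 h against 1 h, higher calls were 1 with size factors, 1 with the block, 1 by the Wald test, 0 with only the compared groups and 0 without any 1 library. For IFNg after DMSO pretreatment, lower calls were 1 without the filter, 0 by the Wald test, 0 with only the compared groups and 0 to 1 when libraries were left out. For IFNg in the panel, higher calls were 1 with the block and 0 to 2 when libraries were left out, and lower calls 2 with library totals and 0 to 2. For DMSO against PBS, higher calls were 0 to 2 when libraries were left out. In HepG2, higher calls were 2 without the filter, 2 with library totals and 0 to 2 when libraries were left out, and lower calls 11 with the replicate block, 10 with library totals, 11 by the Wald test and 10 to 18 when libraries were left out. For Dox, 22 genes were lower, with 5 at 2-fold, 26 with DMSO alone, 21 with PBS alone and 22 to 25 when single vehicle libraries were left out.

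Same-numbered libraries showed no clear shared deviation, and whether a number stands for a shared culture is not known. The replicate block changed no member count other than those given. A group left with 1 library is assumed to vary like the others. Dox has no replicate, HepG2 has 2 residual degrees of freedom and 1 library of 3055373 counts, and the lowest Dox values rest on 73 counts.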

Other observations

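Regulators of cell cycle genes moved in both directions with BRM014, by edgeR's quasi-likelihood test at an adjusted p under 0.05. Of 19 E2F, MYB-MuvB and DREAM regulators 5 rose and 2 fell in GM12878 at 6 h with vehicle, and 5 rose and 3 fell in HepG2 at 24 h, beside 18.4% and 20.1% of all genes in GM12878 and 19.3% and 22.8% in HepG2. NFYA and NFYC, subunits of the NF-Y factor that reads CCAAT boxes, rose by 0.29 and 0.54 on the log2 scale in GM12878, where NFYB differed by 0.23 and did not pass. In HepG2 NFYA rose by 0.95, NFYB fell by 0.43 and NFYC differed by 0.11 and did not pass. NFYB was added after its values were seen, to show the whole complex. E2F4, the E2F of the DREAM complex, rose by 0.63 in HepG2.

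Of 17 subunits and regulators of the APC/C, 6 rose and 2 fell in GM12878 at 6 h, with ANAPC4 at 0.43 and ANAPC13 at -0.59. In HepG2 2 rose and 3 fell, with CDC16 at 0.59 and ANAPC15 at -0.84. S phase genes of HepG2 had values far apart: RRM2, a subunit of ribonucleotide reductase, rose by 2.18, while CDC6, a licensing factor, fell by 1.08 and MCM3, a helicase subunit, by 0.77. WEE1, the kinase that inhibits CDK1, rose by 0.54 there, and PKMYT1, which also inhibits CDK1, fell by 0.58. In the single Dox library FBXO5, an inhibitor of the APC/C, and the histone variant H2AX were lower by the 1.5-fold rule, with log2 differences of -0.60 and -0.77. WEE1 and PKMYT1 stood at 38.7 and 24.7 CPM in that library, within the range of its 4 vehicle libraries.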
